A study of Homo sapiens with 12 samples.

Results

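The genes described here encode the proteasome, the multi-subunit protease that degrades ubiquitin-tagged proteins in the nucleus and cytosol. They were found by their symbol, PSMA, PSMB, PSMC, PSMD, PSME, PSMF or PSMG followed by a number, together with POMP. This gave 47 of the 24962 named genes and 56 of the 46713 probes on the array. 46 of the 47 genes passed the filter on dim probes and were among the 13528 genes tested. PSMA8, an alpha subunit known from testis, was not detected on any of the 12 arrays. POMP, PSMG1, PSMG2 and PSMG3 are listed in the file under older symbols and were found through their RefSeq accessions.

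The core particle is a barrel of stacked rings, with outer rings of alpha subunits (PSMA genes) that gate the entrance and inner rings of beta subunits (PSMB genes) that hold the protease sites. A cap of ATPases (PSMC genes) and non-ATPase subunits (most PSMD genes) recognises, unfolds and feeds in tagged proteins, and other activators (PSME genes) can take its place. In cells exposed to interferon, PSMB8, PSMB9 and PSMB10 replace the standard protease subunits, which changes the peptides made for antigen presentation. Dedicated chaperones build the particle: PSMG proteins and POMP for the core, and PSMD5, PSMD9 and PSMD10 for the base of the cap. When proteasome activity is low, the transcription factor NFE2L1 raises transcription of most subunit genes through antioxidant response elements.

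The cells were UM-UC-3, a line established from a human bladder tumour. They received 1 of 4 small RNAs at 50 nM for 72 h: the miR-101 precursor, its control precursor, the siRNA that targets EZH2, or the control siRNA. Each group had 3 single-colour Illumina bead arrays, and all arrays were of transfected cells of this line. The study asked how miR-101, a microRNA that targets the histone methyltransferase EZH2, changes expression, with the siRNA as a direct knockdown of EZH2. Nothing in the labels says that the triplicates were separate cultures, and the spread that the p-values rest on may therefore be in part technical.

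The control precursor and miR-101 arrays lay on 1 chip, and the control siRNA and EZH2 siRNA arrays on the other. On each chip the controls took positions A to C and the treated samples D to F, and within a chip the position cannot be told apart from the treatment. EZH2 itself, the check of the labels, stood at 8.88, 8.79 and 8.36 (normalized log2 intensity) with the control precursor and at 7.68, 7.81 and 7.86 with miR-101. It stood at 8.57, 8.53 and 8.76 with the control siRNA and at 7.36, 7.51 and 7.35 with the EZH2 siRNA. These are 53.8% and 43.0% of the control level on this scale (limma adjusted p = 3e-04 and 0.000432). PSMA8, detected on no array, averaged 6.80 on the same scale, and percentages for dim genes such as EZH2 include that floor. Of the 3 mesenchymal markers listed 2 were tested, among them VIM, which averaged 14.5. The epithelial marker KRT18 averaged 11.0, whereas the epithelial marker EPCAM and the urothelial markers UPK2, UPK3A, GATA3 and KRT20 did not pass the filter. The leukocyte marker PTPRC, the endothelial marker PECAM1 and the erythroid marker HBA1 averaged 6.84, 6.85 and 6.85, close to background. Only 1 of 5 leukocyte, 1 of 4 endothelial and 1 of 3 erythroid markers was tested. None of those tested passed the threshold with either treatment. With miR-101, 1 of the 3 epithelial markers tested was higher (KRT8, a keratin, 0.40) and 0 were lower. Another epithelial marker changed by -0.24, with its miR-101 arrays wholly below the controls, and did not pass. Both urothelial markers tested were lower, the regulator PPARG by 0.61 and the other by 0.05. The part of these markers in the results was not tested. Between 15453 and 16377 probes were detected per array.

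The microRNA that was transfected has the mature sequence below, from RefSeq (GRCh38.p14, gene MIR101-2, chr9:4850345-4850365, plus strand), with its seed, bases 2 to 8, in capitals.
hsa-miR-101-3p: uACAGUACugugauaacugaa

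Promoters are shown for the genes with the largest change after miR-101 in 5 classes, the genes whose values on every array come first in the account of each class. Each is the RefSeq window (GRCh38.p14) of 250 bases before to 50 after the start site, 5′ to 3′. Capitals mark matches on either strand to TGACNNNGC (antioxidant response element), CCAAT (NF-Y box) or CCGGAAG (ETS family site).
POMP promoter, chr13:28658880-28659179, plus strand: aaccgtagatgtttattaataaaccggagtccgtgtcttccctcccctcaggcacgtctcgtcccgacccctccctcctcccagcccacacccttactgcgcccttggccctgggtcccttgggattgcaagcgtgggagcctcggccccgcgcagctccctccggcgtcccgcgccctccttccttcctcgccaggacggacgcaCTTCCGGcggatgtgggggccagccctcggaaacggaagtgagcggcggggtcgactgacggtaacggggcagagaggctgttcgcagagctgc
PSMB5 promoter, chr14:23035171-23035470, minus strand: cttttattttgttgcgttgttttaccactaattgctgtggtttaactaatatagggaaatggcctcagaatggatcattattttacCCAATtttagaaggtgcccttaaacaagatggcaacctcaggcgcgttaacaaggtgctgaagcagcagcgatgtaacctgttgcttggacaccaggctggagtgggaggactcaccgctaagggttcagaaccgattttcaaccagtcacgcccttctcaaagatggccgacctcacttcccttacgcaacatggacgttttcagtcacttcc
PSMC2 promoter, chr7:103347393-103347692, plus strand: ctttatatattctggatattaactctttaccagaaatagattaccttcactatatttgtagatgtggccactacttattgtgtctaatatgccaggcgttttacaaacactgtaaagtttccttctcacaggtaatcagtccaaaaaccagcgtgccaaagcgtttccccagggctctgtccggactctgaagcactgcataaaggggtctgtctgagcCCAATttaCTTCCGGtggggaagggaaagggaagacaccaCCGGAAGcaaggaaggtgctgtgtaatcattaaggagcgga
PSMD13 promoter, chr11:236726-237025, plus strand: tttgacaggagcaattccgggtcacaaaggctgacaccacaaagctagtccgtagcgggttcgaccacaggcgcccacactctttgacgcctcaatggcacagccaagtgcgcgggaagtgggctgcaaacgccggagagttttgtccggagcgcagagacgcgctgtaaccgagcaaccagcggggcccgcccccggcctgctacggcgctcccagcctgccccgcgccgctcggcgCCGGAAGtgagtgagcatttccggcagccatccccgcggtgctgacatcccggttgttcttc
PSME4 promoter, chr2:53970944-53971243, minus strand: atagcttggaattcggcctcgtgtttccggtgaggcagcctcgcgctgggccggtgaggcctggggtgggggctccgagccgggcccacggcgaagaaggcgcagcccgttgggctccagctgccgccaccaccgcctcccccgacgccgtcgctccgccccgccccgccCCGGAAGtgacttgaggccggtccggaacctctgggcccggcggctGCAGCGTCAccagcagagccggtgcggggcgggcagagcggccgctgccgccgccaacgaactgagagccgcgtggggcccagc

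A window was found for 41 of the 47 genes. TGACNNNGC was in 13 of the 41 (31.7%), against 13.6% of all 27305 promoters of the table. It was in 3 of the 5 promoters of activators and inhibitor and in 4 of 6 of assembly factors, but in 1 of 4 of core beta genes and in none of the 7 of core alpha genes. CCGGAAG was likewise in 13 of 41 (31.7%, against 10.7% of all), including 6 of 10 promoters of cap non-ATPase genes and 3 of 6 of cap ATPase genes. CCAAT was in 18 of 41 (43.9%, against 35.7%). In PSMD14 a CCAAT on each strand overlapped, and the printed PSMC2 window holds CCGGAAG on both strands and a CCAAT. The antioxidant response element is in the printed PSME4 window and not in those of POMP, PSMB5, PSMC2 or PSMD13, which says only that these letters are not in these windows. These matches are a description of the sequence and were not tested against the changes below.

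After miR-101, genes for the proteasome particle were mostly higher while genes for its assembly were mostly lower. Of the 46 genes tested, 25 were higher than with the control precursor and 6 were lower at an adjusted p under 0.05 (limma, Benjamini-Hochberg over 13528 genes). Over all genes tested 23.6% were called higher and 21.3% lower, 44.9% in all. The proteasome genes had a median log2 change of 0.33, against -0.00 for all genes tested. The changes were small: 0 of the 46 rose and 1, POMP, fell by at least 2-fold, against 3.13% and 2.98% of all genes. The 3 miR-101 arrays lay wholly above the 3 control arrays for 25 genes and wholly below for 8, against 27.5% and 26.1% of all genes. Proteasome genes are bright on these arrays, and among the 1828 genes at least as bright as their lower quartile 26.9% were called higher and 28.6% lower. On each array, the median log2 intensity of the 46 genes was 11.2 to 11.4 with the control precursor, 11.6 to 11.7 with miR-101, 11.3 to 11.4 with the control siRNA and 11.4 to 11.5 with the EZH2 siRNA. In RNA from a whole culture, less RNA per cell and fewer cells that hold the RNA cannot be told apart.

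**Figure D1:**
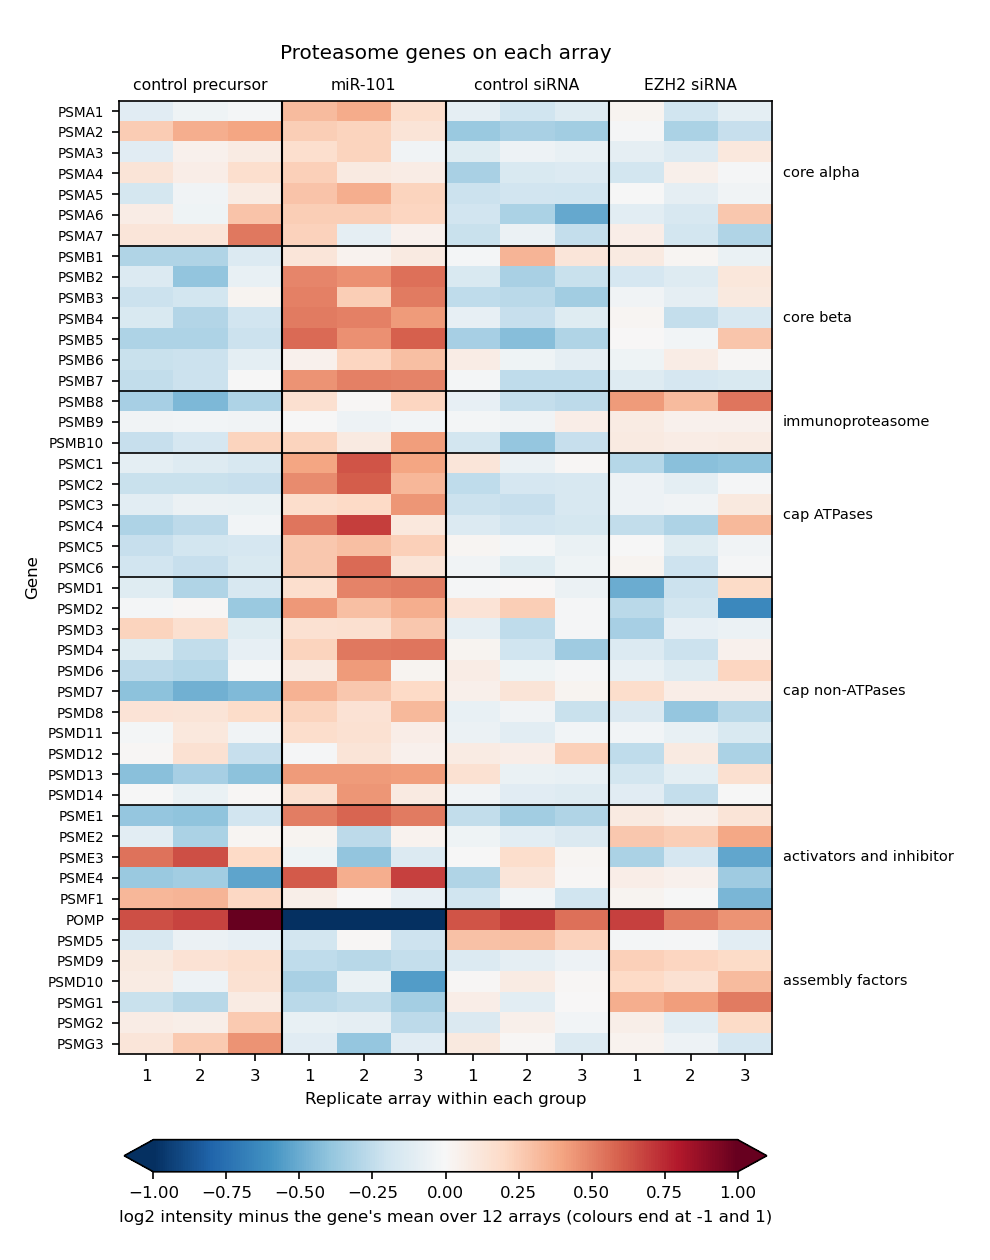
Normalized log2 intensity of the 46 tested proteasome genes (rows, by class) on each of the 12 arrays (columns, 3 per group), shown as the difference from the gene's mean over the 12 arrays, with colours ending at -1 and 1. Most core beta and all cap ATPase genes have their highest group mean with miR-101, the POMP row is lowest there, and PSMB8 and PSMG1 are highest on the EZH2 siRNA arrays.

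All 7 standard beta subunit genes rose with miR-101, with a median log2 change of 0.64. PSMB5, the subunit with the chymotrypsin-like site that bortezomib blocks, stood at 11.98, 11.98 and 12.07 with the control precursor and at 12.85, 12.75 and 12.89 with miR-101. Every miR-101 array was above every other array of the experiment. The change was 0.82 (SE 0.08, adjusted p = 2.41e-05), or 1.76-fold. PSMB7, with the trypsin-like site, rose by 0.64 and PSMB6, with the caspase-like site, by 0.36. The noncatalytic subunits PSMB2, PSMB4, PSMB3 and PSMB1 rose by 0.70, 0.69, 0.55 and 0.32. With median scaling in place of quantile normalization 4 of the 7 remained past the threshold, and PSMB1, PSMB3 and PSMB6 did not (adjusted p = 0.178, 0.0784 and 0.152).

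Of the 7 alpha subunit genes tested, 2 rose and 0 fell, with a median change of 0.11. PSMA1 stood at 11.55, 11.63 and 11.65 with the control precursor and at 11.99, 12.04 and 11.85 with miR-101, with no overlap. Its change was 0.35 (SE 0.07, adjusted p = 0.00183), and a second, separately designed PSMA1 probe gave 0.59. PSMA5, the other gene called, rose by 0.33, but neither remained past the threshold with median scaling (adjusted p = 0.245 and 0.254). The values for the rest were 0.11 for PSMA3, 0.02 for PSMA4, 0.13 for PSMA6, -0.14 for PSMA2 and -0.19 for PSMA7, and their 95% intervals all include 0. The difference between the alpha and the beta genes was not tested.

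All 6 ATPase genes of the cap rose, with a median of 0.56. PSMC2 stood at 12.26, 12.25 and 12.25 with the control precursor and at 12.95, 13.08 and 12.81 with miR-101. Its miR-101 arrays were above all the others, and the change was 0.70 (SE 0.06, adjusted p = 1.32e-05). PSMC4 rose by 0.64, PSMC1 by 0.60, PSMC6 by 0.51, PSMC5 by 0.46 and PSMC3 by 0.35. PSMC4 had the widest error (SE 0.18) and lost its call when control precursor array 1 or 2 or miR-101 array 1 or 2 was left out (adjusted p 0.0523 to 0.0614, log2 change 0.52 to 0.61). With median scaling PSMC4 and PSMC5 were not past the threshold (adjusted p = 0.0761 and 0.058).

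Of the 11 tested non-ATPase genes of the cap, 7 rose, 0 fell and all 11 had a positive change. PSMD13, a subunit of the lid, stood at 8.09, 8.18 and 8.10 with the control precursor and at 8.94, 8.94 and 8.93 with miR-101. The groups did not overlap, and the change was 0.81 (SE 0.09, adjusted p = 5.31e-05). PSMD7, the inactive partner of the deubiquitinase PSMD14, rose by 0.72, the scaffold subunits PSMD1 and PSMD2 by 0.59 and 0.49, and the ubiquitin receptor PSMD4 by 0.58. PSMD6 and PSMD14 rose by 0.37 and 0.25. The PSMD6 call was lost without control precursor array 1 or 2 or miR-101 array 2 (0.25 to 0.34, adjusted p 0.0981 to 0.104), and the PSMD14 call without any array of the 6 but miR-101 array 3 (0.14 to 0.28, adjusted p 0.0545 to 0.124). With median scaling PSMD2, PSMD6 and PSMD14 were not past the threshold (adjusted p = 0.189, 0.136 and 0.644), and PSMD14 changed by 0.08. PSMD3, PSMD8, PSMD11 and PSMD12 changed by 0.11, 0.08, 0.12 and 0.08 and did not pass. PSMD11 was higher in 4 of 17 other settings. PSMD3 and PSMD8 were higher in 1 each, against the control siRNA (0.31 and 0.34). The PSMD12 value rests on a probe for a predicted transcript. The 3 other PSMD12 probes, also for predicted transcripts, were detected on 0 arrays.

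**Figure D2:**
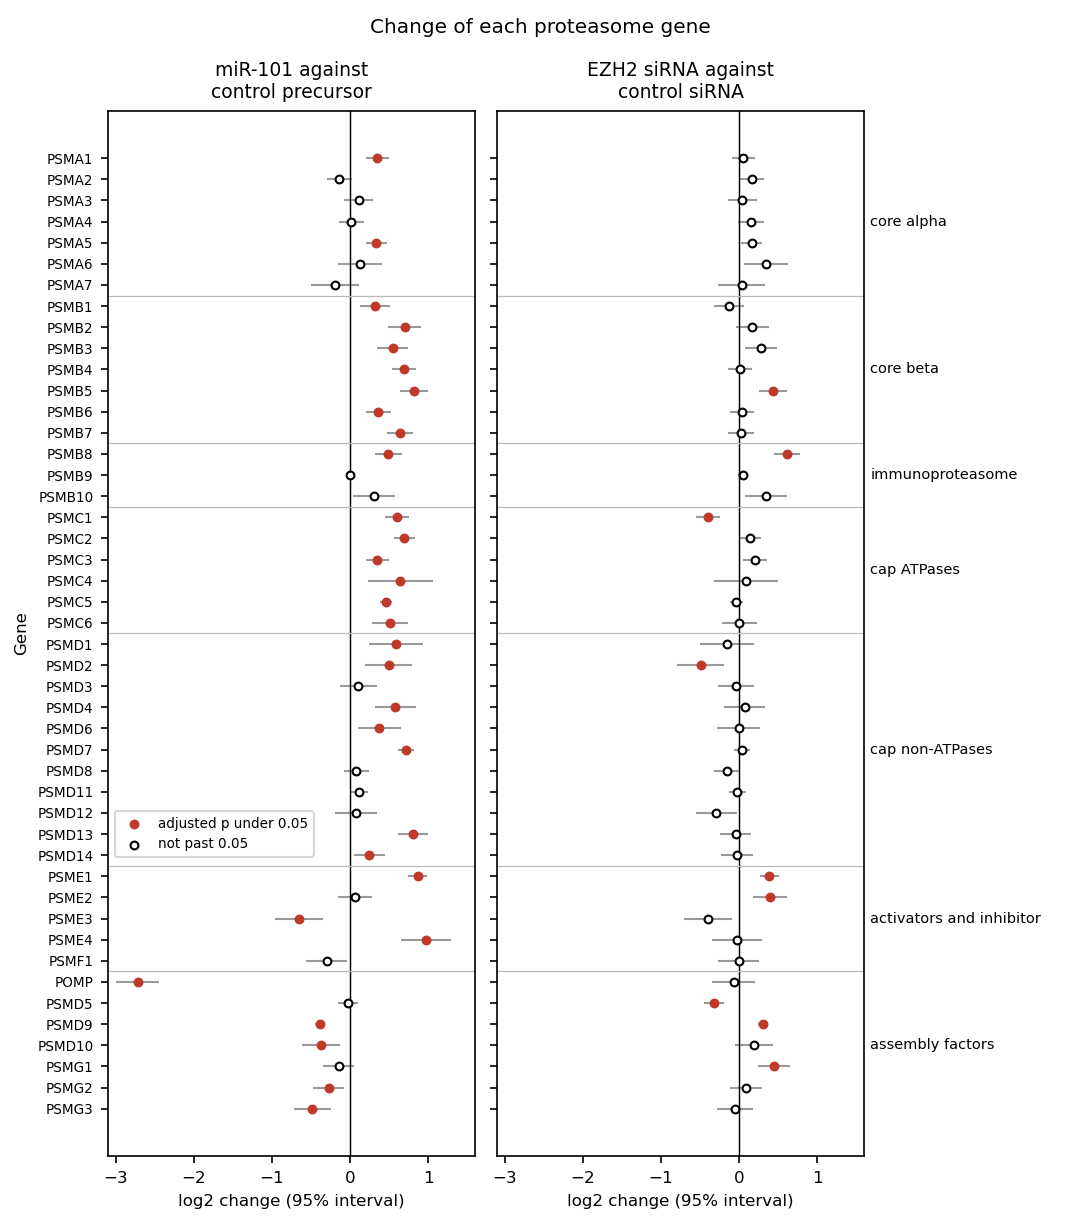
log2 change (points) with its 95% interval (lines) for each of the 46 genes, by class, with miR-101 against the control precursor on the left and the EZH2 siRNA against the control siRNA on the right. Filled red points are past an adjusted p of 0.05: 31 genes on the left, with POMP alone beyond -1, and 9 on the right.

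The assembly factors went the other way, with 5 of 7 lower, 0 higher and a median of -0.37. POMP, the chaperone that fits the beta subunits into the core and is degraded once the core closes, stood at 12.84, 12.87 and 13.19 with the control precursor. With miR-101 it stood at 10.41, 10.01 and 10.33, while the control siRNA arrays were at 12.82, 12.89 and 12.75 and the EZH2 siRNA arrays at 12.88, 12.72 and 12.65. The miR-101 arrays were far below all others. The change was -2.72 (SE 0.12, 95% interval -2.99 to -2.45, adjusted p = 2.64e-07), which leaves 15.2% of the control level. On the scale of the raw signal, POMP was at 8638, 8593 and 11009 units with the control precursor and at 1755, 771.0 and 1190 with miR-101. The call held in all 17 other settings, with changes from -2.89 to -2.55.

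Of the alpha-ring chaperones, PSMG3 fell by 0.48 and PSMG2 by 0.27, and PSMG1, the partner of PSMG2, changed by -0.15 and did not pass. PSMD9 and PSMD10 (gankyrin), chaperones of the ATPase ring, fell by 0.39 and 0.37. PSMD5, a further chaperone of that ring, stood at 7.41, 7.51 and 7.49 with the control precursor and at 7.39, 7.58 and 7.37 with miR-101. Its groups overlapped, and the change was -0.03 (95% interval -0.15 to 0.10, adjusted p = 0.75). The PSMG2 call was lost without control precursor array 3 or miR-101 array 3 (change -0.21, adjusted p = 0.108 and 0.105) and in 5 further settings, among them median scaling (-0.42, adjusted p = 0.066), and the PSMD10 call without control precursor array 1 or 3 (adjusted p = 0.0503 and 0.0607).

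Among the activators, PSME4, a nuclear activator that favours breakdown of acetylated histones, stood at 10.33, 10.36 and 10.18 with the control precursor and at 11.32, 11.07 and 11.39 with miR-101. The miR-101 arrays were above all others, and the change of 0.97 (SE 0.14, adjusted p = 0.000401) was the largest rise of any proteasome gene in this comparison. PSME1 and PSME2 form together the interferon-inducible activator that opens the core, and they differed here. PSME1 stood at 11.51, 11.50 and 11.70 with the control precursor and at 12.41, 12.48 and 12.42 with miR-101, with no overlap and a change of 0.86 (SE 0.05, adjusted p = 1.71e-06). PSME2 stood at 11.82, 11.61 and 11.95 and at 11.95, 11.67 and 11.96, with overlapping groups and a change of 0.07 (95% interval -0.15 to 0.29). A second PSME1 probe, for another transcript, averaged 6.89, close to background, and rose by 0.05 (SE 0.01, adjusted p = 0.0315 over all probes). PSME3, the nuclear activator of the same family, stood at 10.18, 10.29 and 9.84 with the control precursor and at 9.59, 9.25 and 9.50 with miR-101. Its groups did not overlap, and it fell by 0.66 (SE 0.14, adjusted p = 0.00317), but median scaling ended the call (adjusted p = 0.0514). PSMF1, the proteasome inhibitor, changed by -0.30 and did not pass (adjusted p = 0.0627), but it was lower in 5 of 17 other settings.

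Of the 3 immunoproteasome genes, 1 rose with miR-101. PSMB8 stood at 7.34, 7.23 and 7.36 with the control precursor and at 7.84, 7.68 and 7.89 with miR-101. Its groups did not overlap, and the change was 0.49 (SE 0.07, adjusted p = 0.000506), while a second PSMB8 probe gave 0.28 and did not pass (adjusted p = 0.112 over all probes). PSMB10 stood at 9.83, 9.89 and 10.28 with the control precursor and at 10.28, 10.15 and 10.48 with miR-101, overlapping, with a change of 0.30 (adjusted p = 0.0659). It was higher in 7 of 17 other settings, among them without control precursor array 3 (0.44, adjusted p = 0.00448) and without miR-101 array 2 (0.38, adjusted p = 0.0422). PSMB9 lay close to background, at 6.85, 6.85 and 6.84 and at 6.88, 6.82 and 6.85, was detected on 10 of 12 arrays, and did not pass.

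**Figure D3:**
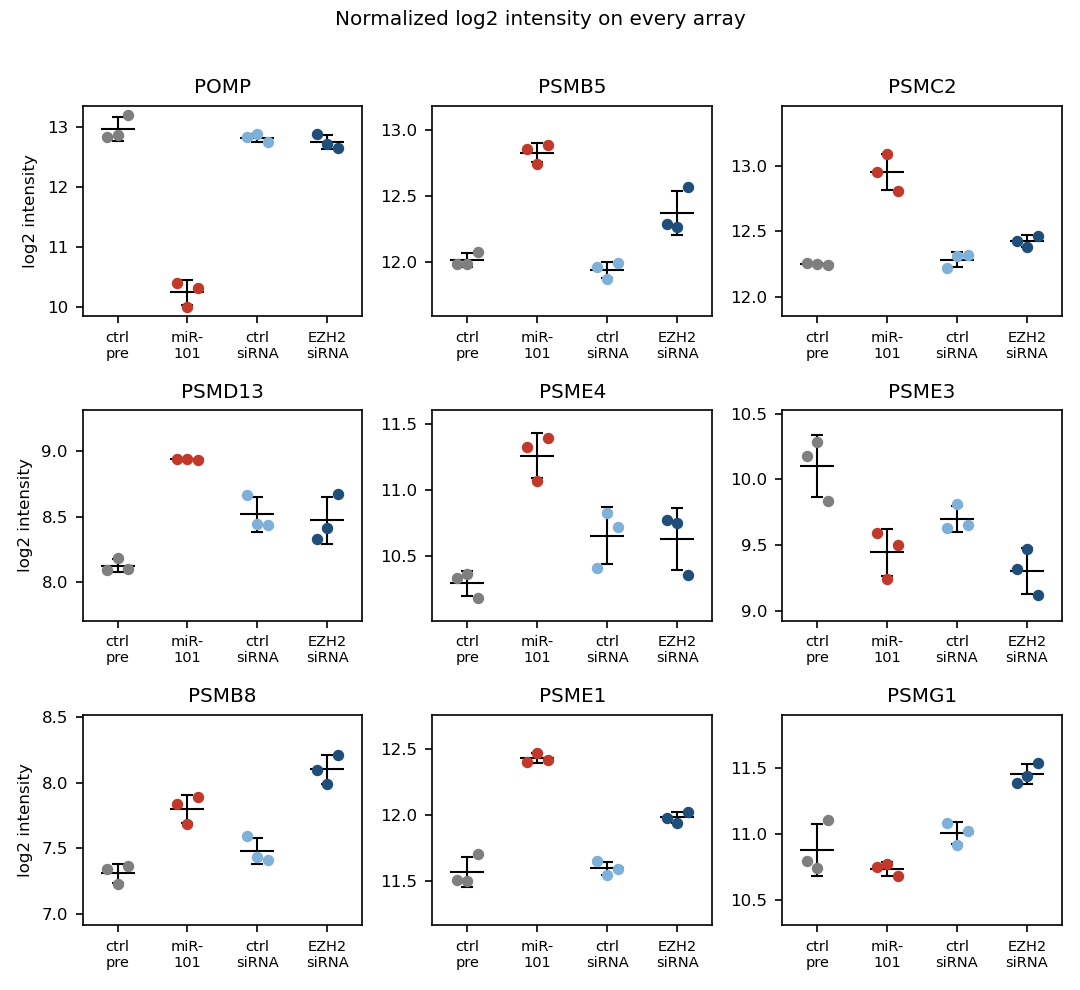
Normalized log2 intensity (vertical axis) of 9 proteasome genes on each of the 12 arrays, as points by group (control precursor, miR-101, control siRNA, EZH2 siRNA), with the group mean and SD (n = 3) as bars. POMP is low with miR-101 (10.01 to 10.41) and at 12.65 to 13.19 on the other arrays, PSMB5 and PSME1 are high with miR-101 and in between with the EZH2 siRNA, and PSMB8 and PSMG1 are highest with the EZH2 siRNA.

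The control siRNA gives a second control for miR-101, on the other chip. Against it 28 proteasome genes were higher and 5 lower, where 22.9% and 20.2% of all genes were. Of the 25 genes higher against the control precursor, 21 were higher against the control siRNA too and 4 were not past the threshold. Of the 6 lower genes 3 were lower against both. All 6 ATPase genes and 6 of 7 beta genes were again higher, and POMP was again lower (-2.57). PSMB1 turned from 0.32 to -0.07 and did not pass there, PSMD1, PSMD2 and PSMD6 did not pass (adjusted p = 0.0562, 0.186 and 0.299), and the change was smaller for PSMD13 (0.42), PSMD7 (0.20), PSME4 (0.61), PSMB6 (0.21), PSMB8 (0.32) and PSMC5 (0.29). PSME3 changed by -0.25, PSMG3 by -0.20 and PSMG2 by -0.10, and none of them passed, while PSMD5 and PSMG1 were lower (-0.40 and -0.27). Of the 7 alpha genes 5 were higher against this control, in place of 2, among them PSMA2, which went from -0.14 to 0.55.

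The controls themselves differed. Of the 46 genes, 5 were higher with the control siRNA than with the control precursor and 7 were lower, against 14.1% and 14.2% of all genes. Of the 7 alpha genes 4 were lower (PSMA2 -0.69, PSMA6 -0.45, PSMA7 -0.43 and PSMA4 -0.32), and PSMD8, PSMD9 and PSMF1 were lower too. PSMD7, PSMB1, PSMD13, PSMD5 and PSMC5 were higher (0.51, 0.39, 0.39, 0.38 and 0.17). These 2 groups were on different chips, so chip and transfected control cannot be told apart. Without control siRNA array 3, 3 genes were lower in place of 7, and with median scaling 3 were higher and 0 lower.

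**Figure D4:**
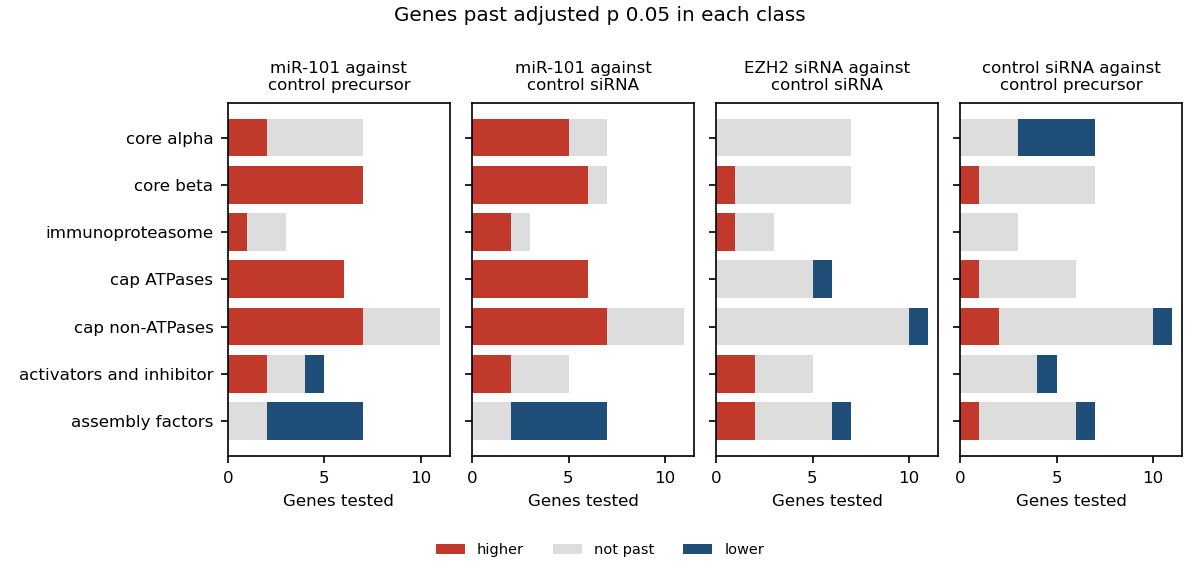
Number of genes tested in each class (bar length), split into higher, not past an adjusted p of 0.05, and lower, for 4 comparisons. The cap ATPase genes (6 of 6) and nearly all core beta genes (7 and 6 of 7) are higher with miR-101 against either control, the assembly factors are lower (5 of 7), and the core alpha genes differ between the controls (4 of 7 lower).

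After the siRNA against EZH2, 9 of the 46 proteasome genes were past the threshold, where 10.5% of all genes were. Against the control siRNA 6 of 46 were higher and 3 lower, where 5.85% and 4.64% of all genes were, and the median log2 change was 0.03. All genes tested had a median of 0.00, and together 10.5% were called. The EZH2 siRNA arrays lay wholly above the control siRNA arrays for 14 proteasome genes and wholly below for 4, against 17.8% and 14.8% of all genes. Among genes at least as bright as the lower quartile of the proteasome genes 7.33% were called higher and 6.46% lower, and 0 of the 46 changed by 2-fold or more, where 0.148% of all genes rose and 0.333% fell that far. By class, 0 of 7 alpha genes, 1 of 7 beta genes, 1 of 3 immunoproteasome genes and 2 of 5 activator and inhibitor genes were higher, and 1 of 6 ATPase genes and 1 of 11 non-ATPase genes were lower. All 7 alpha genes had a positive change (median 0.16), and 3 of them had an unadjusted p under 0.05 in limma. Of the assembly factors 2 were higher and 1 lower. The share of all called genes that were higher was 55.7%, and with median scaling it was 30.7%, with 2 proteasome genes higher and 2 lower.

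PSMB8 had the largest rise. It stood at 7.60, 7.44 and 7.41 with the control siRNA and at 8.10, 7.99 and 8.21 with the EZH2 siRNA, which were the 3 highest values of the experiment. The change was 0.62 (SE 0.07, adjusted p = 0.00101), and the second probe gave 0.78. PSMB10 stood at 9.87, 9.67 and 9.83 and at 10.15, 10.13 and 10.14, with no overlap, and its change of 0.35 did not pass (95% interval 0.08 to 0.62, adjusted p = 0.103). PSMB9 stood at 6.86, 6.85 and 6.94 and at 6.96, 6.92 and 6.92, close to background.

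Both subunits of the interferon-inducible activator were higher. PSME1 stood at 11.65, 11.55 and 11.59 with the control siRNA and at 11.98, 11.94 and 12.02 with the EZH2 siRNA, a change of 0.39 (SE 0.05, adjusted p = 0.00205). PSME2 stood at 11.89, 11.82 and 11.78 and at 12.20, 12.17 and 12.31, a change of 0.40 (SE 0.10, adjusted p = 0.0317). Neither gene's groups overlapped. The PSME2 call was lost when any 1 of the 6 arrays was left out (adjusted p 0.0606 to 0.109, log2 change 0.35 to 0.42), and both calls were lost with median scaling (adjusted p = 0.183 and 0.322).

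PSMB5 stood at 11.96, 11.87 and 11.99 with the control siRNA and at 12.29, 12.26 and 12.57 with the EZH2 siRNA, without overlap, a change of 0.44 (SE 0.08, adjusted p = 0.00731). PSMG1, which with PSMG2 starts the alpha ring, stood at 11.08, 10.92 and 11.02 and at 11.38, 11.44 and 11.54. All EZH2 siRNA arrays were above all others, and the change was 0.45 (SE 0.09, adjusted p = 0.0131). PSMD9 rose by 0.31 (adjusted p = 0.000224). With median scaling PSMB5 and PSMG1 did not pass (adjusted p = 0.153 and 0.253), and PSMG1 did not without control siRNA array 2 (change 0.40, adjusted p = 0.052). PSMG1 has a second probe, and with the dimmest probe of each gene it rose by 0.35 and did not pass (adjusted p = 0.0658).

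The 3 lower genes were PSMC1, PSMD2 and PSMD5. PSMC1, an ATPase of the cap, stood at 13.32, 13.14 and 13.21 with the control siRNA and at 12.91, 12.78 and 12.79 with the EZH2 siRNA, without overlap, and fell by 0.39 (SE 0.07, adjusted p = 0.00669). PSMD5 stood at 7.86, 7.87 and 7.81 and at 7.56, 7.56 and 7.47, and fell by 0.32 (SE 0.06, adjusted p = 0.00724). PSMD2 stood at 12.10, 12.21 and 11.95 and at 11.69, 11.78 and 11.32, and fell by 0.49 (SE 0.13, adjusted p = 0.0488). The groups of these 3 genes did not overlap. The PSMD2 call was lost in 11 of 17 other settings, including without EZH2 siRNA array 1 or 3 and without any 1 of the control siRNA arrays (adjusted p 0.0729 to 0.154).

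Against the control precursor on the other chip, the EZH2 siRNA had 10 proteasome genes higher and 6 lower (15.1% and 13.4% of all genes). Of the 6 genes higher against the control siRNA, 5 were higher here, among them PSMB8 (0.79), PSMG1 (0.58), PSME2 (0.43), PSME1 (0.41) and PSMB5 (0.36), and PSMD9 was not past the threshold (0.08, adjusted p = 0.0509). PSMB9, close to background, was higher by 0.09 (adjusted p = 0.0345). PSMC1 was lower again (-0.24). PSMD2 changed by -0.24 and PSMD5 by 0.06, and neither passed.

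Set side by side, each treatment against its own control, 3 genes were higher with both: PSMB5 (0.82 with miR-101 and 0.44 with the EZH2 siRNA), PSMB8 (0.49 and 0.62) and PSME1 (0.86 and 0.39). PSMC1 (0.60 and -0.39) and PSMD2 (0.49 and -0.49) were higher with miR-101 and lower with the EZH2 siRNA, and PSMD9 (-0.39 and 0.31) was the reverse. Each of the 3 changed less against the other control: PSMC1 by 0.45 and -0.24, PSMD2 by 0.24 and -0.24, and PSMD9 by -0.16 and 0.08. No gene was past the threshold as lower with both. PSME3, lower with miR-101, changed by -0.40 with the EZH2 siRNA, without overlap, and did not pass. With the EZH2 siRNA it was lower in 2 of 17 other settings, among them against the control precursor (-0.80, limma adjusted p = 0.00198). The difference between the responses, tested as an interaction in the same fit, was positive for 19 genes and negative for 5, where 17.4% and 16.4% of all genes were. By class it was positive for 6 of 7 beta genes, 4 of 6 ATPase genes and 5 of 11 non-ATPase genes, and negative for 4 of 7 assembly factors. No immunoproteasome gene passed this test: the difference was -0.13 for PSMB8 (95% interval -0.36 to 0.11) and -0.05 for PSMB10 (-0.43 to 0.33). With median scaling 8 genes were positive and 2 negative.

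Genes around the proteasome were mixed, and the lists were chosen with earlier results of these data known. The counts here and in the paragraphs below stand beside these shares of all genes tested. With miR-101 23.6% were higher and 21.3% lower, and against the control siRNA 22.9% and 20.2%. With the EZH2 siRNA the shares were 5.85% and 4.64%, and against the control precursor 15.1% and 13.4%. Between the controls they were 14.1% and 14.2%. Of 21 proteasome-associated and shuttle factors tested, 9 were higher and 3 lower with miR-101, with a median of 0.17. They include ADRM1, a ubiquitin receptor of the cap (0.82), ZFAND2A, an arsenite-inducible proteasome-associated factor (1.38), PITHD1 (0.87) and UFD1, a cofactor of the unfolding ATPase VCP (0.41). After the EZH2 siRNA 0 were higher and 4 lower, among them the shuttle factors UBQLN1 (-0.72) and RAD23B (-0.34), and USP14 (-0.61), the deubiquitinase of the cap.

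Of the 14 regulators of proteasome genes, 4 were higher and 3 lower with miR-101, near the shares of all genes (23.6% and 21.3%). NFE2L1 changed by 0.13 and its relative NFE2L2 by -0.21, and neither passed (adjusted p = 0.413 and 0.272). FBXW7, a ubiquitin ligase subunit, fell by 0.81, KEAP1, which marks NFE2L2 for degradation, by 0.26 and the NF-Y subunit NFYB by 0.15, and STAT3 rose by 0.68. NFE2L1 fell by 0.66 with the EZH2 siRNA (SE 0.11, adjusted p = 0.00614), NFYA fell by 0.25, and FBXW7 and STAT3 rose by 0.24 and 0.39. Set against the other control, these regulators read 5 higher and 3 lower with miR-101, and 2 higher and 6 lower with the EZH2 siRNA. The lowest change with miR-101 was then -0.40, so the fall of FBXW7 was smaller there. Between the controls 1 regulator was higher and 4 were lower. Of 13 targets of NFE2L2, 2 were higher and 4 lower with miR-101, among them TKT (-1.11), GCLM (-0.60), GCLC (-0.46) and OSGIN1 (0.47). Against the control siRNA that list read 7 higher and 1 lower.

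Upstream in the pathway, 4 of 25 ubiquitin-conjugating E2 enzymes were higher and 12 lower with miR-101, with a median of -0.17, and UBE2D3 (-1.49), UBE2C (-1.14) and UBE2D2 (-0.88) were among those that fell. Against the control siRNA 5 were higher and 11 lower. Of 7 ubiquitin genes and E1 enzymes 4 were higher and 2 lower, including UBB (0.65), UBA6 (0.50) and NAE1 (-0.81), but 1 was higher and 2 lower against the control siRNA. After the EZH2 siRNA 1 E2 enzyme was higher, UBE2L6 (0.58), and none of the 7 ubiquitin and E1 genes passed.

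Other multi-subunit complexes were set beside the proteasome. Of the 9 genes of the COP9 signalosome, whose subunits resemble those of the lid, 4 were higher and 2 lower with miR-101 (COPS2 0.71, COPS5 0.46, COPS7A -0.42 and COPS7B -1.40). Of the 13 genes of the translation initiation factor eIF3, a complex of the same architecture, 4 were higher and 1 lower (EIF3H 0.36, EIF3G 0.35, EIF3A 0.19 and EIF3B -0.44). Of the 8 genes of the CCT chaperonin, a ring complex that folds actin and tubulin, 0 were higher and 3 lower (CCT5 -0.68, CCT4 -0.44 and CCT3 -0.24), and against the control siRNA 0 were higher and 7 lower. Medians were 0.09, 0.09 and -0.22 in these lists, against 0.33 for the proteasome genes and -0.00 for all genes tested. After the EZH2 siRNA 4 of 9 COP9 genes were higher (COPS7B 0.64, COPS4 0.35, COPS7A 0.29 and COPS5 0.23), and none of the 13 eIF3 or 8 CCT genes passed. Against the control precursor 2 COP9 genes were higher and 1 lower with the EZH2 siRNA, and the highest change was 0.33. With miR-101 against the control siRNA 3 were higher and 2 lower, and the lowest change was -0.59.

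Heat shock genes, which rise when misfolded proteins build up, depended on the control. Of 14, 8 were higher and 2 lower with miR-101 against the control precursor, including HSPA1B (0.91), HSPA1A (0.75), HSPB1 (0.48) and HSF1 (-0.63). Against the control siRNA 2 were higher and 8 lower. HSPA1A and HSPA1B are near-identical copies, and their probes may share signal. With the EZH2 siRNA against the control siRNA 0 were higher and 1, HSP90AB1 (-0.47), lower. Against the control precursor 8 were higher and 1 lower with the EZH2 siRNA. The controls themselves differed, with 9 of the 14 higher and 1 lower with the control siRNA than with the control precursor.

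In the list of peptide loading genes and interferon inducers, which act with the immunoproteasome, 7 of 12 tested were higher and 1 lower with miR-101, with a median of 0.50. IRF9, the DNA-binding part of the factor that interferon activates, rose by 2.55 (SE 0.07, adjusted p = 1.68e-08), HLA-E by 1.15, HLA-B by 0.96 and ERAP2, an aminopeptidase that trims peptides, by 0.55. The lower gene was IRF1, an interferon-induced transcription factor (-1.40, adjusted p = 0.000102), named after its value was seen. Against the control siRNA 7 were higher and 0 lower, and IRF1 changed by 0.31 and did not pass (adjusted p = 0.163). The highest change of the list was 1.65 there, so the rise of IRF9 was smaller than against the control precursor. With the EZH2 siRNA 2 were higher, IRF9 (0.57) and B2M (0.38), the light chain of class I molecules, beside PSMB8 (0.62).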

How the data were processed

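Expression was measured on 12 Illumina bead arrays, with BeadStudio named in the submitters' processing notes. The deposited raw table, per the file headers, holds 1 signal intensity and 1 detection p-value per probe and array, without normalization. The deposited value table holds a second intensity per probe, and its values have the same distribution on every array (median 89.0833 on each). How the authors made it is not stated. It served as an alternative.

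In limma 3.58.1 (R 4.3.3) the raw signal was background-corrected with neqc, using the detection p-values, with an offset of 16, then quantile normalized and taken to log2. Probes with a detection p under 0.05 on at least 3 of 12 arrays were kept (17844), and the brightest probe stood for a gene. A model with 4 groups (lmFit, eBayes) gave changes, standard errors and Benjamini-Hochberg p-values over 13528 genes. Precision is limited by 3 arrays a group. Median within-group SD of the proteasome genes was 0.0948. Symbols were updated through RefSeq accessions. Values on every array are given for EZH2, POMP, the immunoproteasome genes, PSME1, PSME2 and, in each class, the largest rise and fall past the threshold with each treatment. Of the other lists up to 4 genes with the smallest adjusted p are named, and a few that the rule would name are not reported here. NFE2L2, TAP1, TAP2, KRT8 and PPARG were added after their values were seen. The members and lists were chosen with earlier results of these data known. The other settings (17 for each treatment against its control, 21 for the difference of the responses, 16 between the controls) were other normalizations, filters, offsets and probes, array weights, the replicate block, each array left out, only the groups compared (not for the difference) and the other control (for each treatment alone). Deviations of same-numbered arrays of different groups were mixed (18 correlations from -0.406 to 0.547, 8 of them over 0.1). The labels do not say that the numbers pair the arrays, and they were not used as pairs.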

Additional observations from a re-analysis of the deposited data

Results flagged for a closer look

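For 24 proteasome genes the response to miR-101 and the response to the EZH2 siRNA, each against its own control, differed by a test of the difference itself (interaction in the limma fit, Benjamini-Hochberg adjusted over all genes tested). Values are the log2 change with miR-101 minus that with the EZH2 siRNA. Among the assembly factors it was -2.65 for POMP (adjusted p = 5.32e-06), -0.70 for PSMD9, -0.59 for PSMG1 and -0.56 for PSMD10, and 0.29 for PSMD5. Among the core beta genes it was 0.68 for PSMB4, 0.61 for PSMB7, 0.53 for PSMB2, 0.46 for PSMB1, 0.38 for PSMB5 and 0.33 for PSMB6. The alpha genes gave 0.30 for PSMA1 and -0.30 for PSMA2. The cap ATPase genes gave 0.99 for PSMC1 (adjusted p = 6.03e-05), 0.56 for PSMC2, 0.51 for PSMC6 and 0.49 for PSMC5. The cap non-ATPase genes gave 0.98 for PSMD2, 0.85 for PSMD13, 0.74 for PSMD1, 0.68 for PSMD7 and 0.51 for PSMD4. The activators gave 1.00 for PSME4 and 0.48 for PSME1. When 1 of the 12 arrays was left out in turn, the call was lost in 9 cases for PSMA2 and PSMD4, 8 for PSMA1 and PSMB6, 7 for PSMB5 and 6 for PSMD1 (highest adjusted p 0.0562 to 0.0937), and the other 18 genes kept it. Each treatment was set against the control on its own chip, and the controls themselves differed for 12 of the 46 genes.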

How the results depend on the processing

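POMP with miR-101 and PSMB8 and PSMC1 with the EZH2 siRNA were among the calls that held in all alternatives run: 15 of 31 with miR-101, 2 of 9 with the EZH2 siRNA, 8 of 24 for the difference and 3 of 12 between the controls. Median scaling gave 15 higher with miR-101 (25 in the fit reported), 2 higher with the EZH2 siRNA (6), 8 and 2 for the difference (19 and 5) and 3 and 0 between the controls (5 and 7). It also moved the share of all called genes that were higher from 55.7% to 30.7% with the EZH2 siRNA and from 49.7% to 75.6% between the controls, and the cause was not tested. Array weights gave 10 higher with the EZH2 siRNA and 10 higher between the controls. The other control, on the other chip, gave 10 higher and 6 lower with the EZH2 siRNA. It reversed PSMA2 (0.55 with miR-101, -0.52 with the EZH2 siRNA) and PSMB1 (-0.066 and 0.26), and, with the EZH2 siRNA, PSMC5 (0.14), PSMD13 (0.34) and PSMD5 (0.056). With 1 array left out, counts ran from 22 to 26 higher and 4 to 6 lower with miR-101, 4 to 5 and 2 to 4 with the EZH2 siRNA, 14 to 19 and 4 to 6 for the difference, and 5 to 6 and 3 to 6 between the controls. With the replicate block they were 24 and 6, 7 and 3, 17 and 5, and 6 and 6. Whether the replicate numbers pair the arrays is not stated in the labels. The block ended the calls of PSMD6, PSMD14 and PSMG2 with miR-101 (adjusted p = 0.0531, 0.0805 and 0.0509), of PSMA1, PSMA2 and PSMD4 for the difference (0.051, 0.0714 and 0.069) and of PSMA7 between the controls (0.0628). It added PSMB10 and PSMF1 with miR-101 (0.0332 and 0.0252), PSMC3 with the EZH2 siRNA (0.0345), PSME2 for the difference (0.0435) and PSMB8 between the controls (0.0474). The precision rests on 3 arrays a group, and the intensities of PSMB9 and the dim PSME1 probe lay close to background.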

Other observations

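Several of the interferon-linked proteasome genes are neighbours in the genome (RefSeq gene order, GRCh38.p14), and their values were set in that order. On chromosome 6 the 4 protein-coding genes TAP2, PSMB8, TAP1 and PSMB9 follow each other. With miR-101 PSMB8 rose by 0.49 and TAP1, a peptide transporter subunit, by 0.65 (adjusted p = 0.0046), while TAP2 changed by 0.33 and did not pass (adjusted p = 0.148). With the EZH2 siRNA PSMB8 rose by 0.62, and TAP1 and TAP2 changed by -0.15 and 0.16 and did not pass. On chromosome 14 PSME1, PSME2 and IRF9 are the first, the third and the last of a run of 5 protein-coding genes. With miR-101 PSME1 rose by 0.86 and IRF9 by 2.55, and PSME2 between them changed by 0.07 (adjusted p = 0.624). Against the control siRNA the change of IRF9 with miR-101 was at most 1.65. With the EZH2 siRNA PSME1, PSME2 and IRF9 rose by 0.39, 0.40 and 0.57.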
